A study of Mus musculus with 12 samples.

Results

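Protein kinases and phosphatases were examined as messages bound by eIF4G2, a relative of the translation initiation scaffold eIF4G, in their 5′ UTRs. The 122 genes were chosen by symbol: every listed gene whose name begins with a kinase or phosphatase prefix (such as Map3k, Mapk, Camk, Prkc, Cdk, Pak, Stk, Ppp, Ptpr or Dusp), except Plk2, Gsk3b and the Ptprn genes. They make up 3.62% of the 3366 named 5′ UTRs in the tables, which list 3367 entries. By name, 57 encode kinases, 4 kinase subunits or activators, 30 phosphatases, 26 regulators of phosphatases, and 5 proteins that carry such a prefix without being a catalytic or regulatory subunit.

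The study used eIF4G2 CLIP, in which ultraviolet light crosslinks protein to RNA in living cells, an antibody pulls down eIF4G2, and the RNA pieces that stay bound are read as sequence tags. Primary cortical neurons came from embryos of outbred CD-1 mice, with no genetic change named, and each replicate was made from 3 dishes of 15 cm. Resting neurons were compared with neurons that were silenced for 2 h with tetrodotoxin and DL-AP5, exposed to 55 mM KCl for 1 h and then rested for 30 min. Cycloheximide was given for 2 min in both conditions, and crosslinking used 1 pulse of 400 and 1 of 200 mJ/cm2. Whether resting cultures were also silenced is not given in the sources used here, so the effects of the drugs, of KCl and of the rest cannot be told apart. There were 6 resting libraries (replicates 1 to 6) and 5 depolarized libraries (replicates 1, 2, 3, 4 and 6), since the table labelled depolarized replicate 5 is a copy of that of resting replicate 5 and was left out. The labels number 6 replicates a condition, whereas the design text of the series names 3 and the methods name 5, and which libraries those were is not given, so every n here counts labelled libraries.

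Kinases attach phosphate to proteins and phosphatases remove it, and in neurons the balance between them sets receptor number, spine structure and gene expression after activity. Calcium entering a depolarized neuron acts through calmodulin on the calmodulin kinases and on the phosphatase calcineurin, and through Ras on the MAP kinase cascade, which ends in ERK and is switched off by dual-specificity phosphatases. eIF4G2 lacks the part of eIF4G that binds the cap-binding protein eIF4E and takes part in initiation on messages with structured or upstream-ORF-containing 5′ UTRs.

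The hexamer examined in the study's motif analysis, CGCGGC, was looked for on the sense strand of each annotated 5′ UTR, and it occurred in 59 of the 122 kinase and phosphatase 5′ UTRs (48.4%) against 1219 of 3316 listed 5′ UTRs with a sequence (36.8%) and 50.9% of those in the same deciles of length and GC content. Of the 12 genes with the most tags, 7 held it (58.3%), beside 52.5% of all listed 5′ UTRs that also had 10 tags or more. The windows shown here, of 30 bases each in GENCODE M21 transcripts (GRCm38, the mm10 build) and written 5′ to 3′ with the hexamer in capitals, were chosen because these genes carry the results that follow. The capitals mark the copy at the centre of each window, and the Ptpn1 window holds another copy in lower case. Further copies in some of these 5′ UTRs are not shown. The paper also reports CGCGGC as the motif with the most crosslinking in its eIF4G2 CLIP, counted over 5′ UTR peaks. A match in a 5′ UTR is a different measure, since it describes the sequence and is not a mapped crosslink site.
Ppp2ca, chr11:52098765-52098794, plus strand: cgtcgccctcccCGCGGCtccctgacgctg
Ppm1l, chr3:69317280-69317309, plus strand: acccggggcaccCGCGGCggccgccgccgc
Pak6, chr2:118663362-118663391, plus strand: ggaggggtgcgcCGCGGCcggggctgccgg
Ppp3ca, chr3:136670232-136670261, plus strand: atcgcggacgagCGCGGCggcgggacgtct
Dyrk1a, chr16:94570374-94570403, plus strand: accctgagccagCGCGGCtgcggcgcggag
Map2k1, chr9:64253379-64253408, minus strand: gggtcccaggagCGCGGCgttgatcgagcc
Stk24, chr14:121379173-121379202, minus strand: cgacctgagcacCGCGGCggcgcagcgacg
Ptpn1, chr2:167932427-167932456, plus strand: gacgcggagcgaCGCGGCctagcgcggcgg
Map4k4, chr1:39901063-39901092, plus strand: tggtgtgagctcCGCGGCcagcgctctccg
The 2 genes with the most tags per kilobase of 5′ UTR, Dusp1 and Brsk1, held no CGCGGC, nor did Map3k10, Ppp1r10 or Dusp6.

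The libraries were shallow. Totals on 5′ UTRs ran from 306 to 3224 tags at rest and from 264 to 5240 after depolarization, 15767 in all. In the shallowest library 3 tags, the most that a count of 0 still allows, are 11364 CPM, the unit that scales tags to a common library total. The replicate 1 pair supplied 59.2% of the kinase and phosphatase tags and 53.7% of all tags. Of 8 neuronal marker genes 6 were listed, with 168 tags, 143 of them on a single gene. The astrocyte, oligodendrocyte and endothelial markers were not listed, and the microglial list gave 1 gene with 1 tag. The rule behind the list of 5′ UTRs is not given, so absence from it does not measure the share of a cell type. Tags were not set against the amount of each message, so more binding and more mRNA cannot be told apart anywhere in these data.

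Kinase and phosphatase 5′ UTRs collected 546 tags, 181 at rest and 365 after depolarization, which is 3.46% of all tags and close to their 3.62% of the listed 5′ UTRs. A tag was found on 118 of the 122. The remaining 4, Map4k2, Nek1, Nek7 and Ppm1f, had none in any library. Tags were seen only at rest on 25 (20.5%, beside 27.2% of all named 5′ UTRs), only after depolarization on 39 (32.0% beside 35.4%) and in both on 54 (44.3% beside 34.9%). For 42 genes there was a single tag, for 54 all tags lay in 1 library, and 12 had 10 tags or more. The median was 2 tags, the same as over all named 5′ UTRs.

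On average 2.85 ± 1.20% of a resting library's tags (SD, n = 6) and 3.14 ± 1.40% of a depolarized library's (SD, n = 5) fell on these genes, and the means differed by less than the spread between libraries. Replicate by replicate, the resting shares were 3.23, 4.04, 4.25, 1.24, 2.48 and 1.86%, and the depolarized shares of replicates 1, 2, 3, 4 and 6 were 4.18, 3.98, 4.196, 1.09 and 2.27%. The libraries grouped by replicate number more than by condition: replicates 1 to 3 lay above 3% and replicates 4 to 6 below 2.5%, in both conditions. The depolarized share was higher in 2 of the 5 pairs. On summed tags the share went from 3.38% to 4.16% within replicates 1 to 3 and from 1.91% to 1.48% within replicates 4 to 6.

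**Figure D1:**
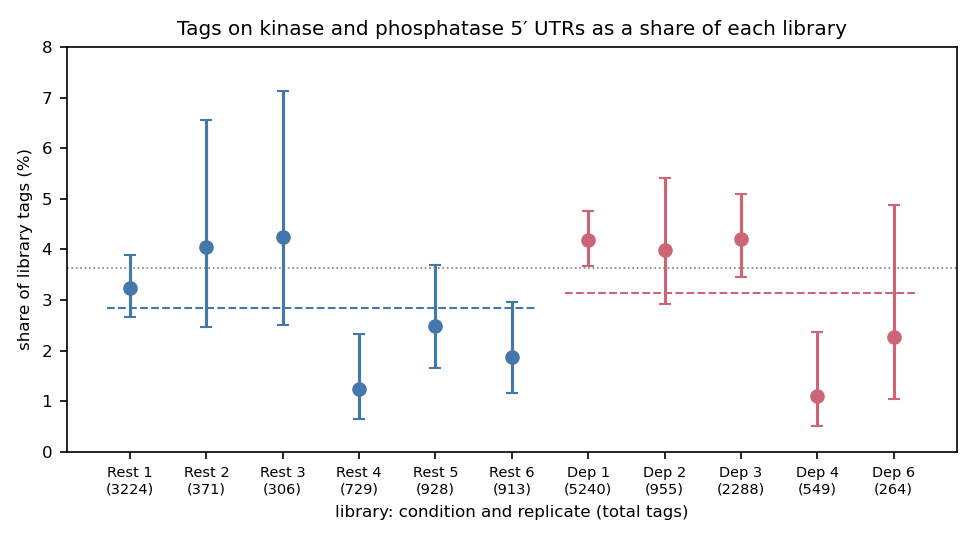
Share of each library's tags on the 122 kinase and phosphatase 5′ UTRs (y axis, percent) for 6 resting (blue) and 5 depolarized (red) libraries, with total tags in brackets. Points are shares, bars Wilson 95% intervals for counting error, dashed lines condition means, and the dotted line the 3.62% of listed 5′ UTRs that these genes make up. Replicates 1 to 3 sit above replicates 4 to 6 in both conditions.

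The study asked how depolarization changes eIF4G2 binding to 5′ UTRs, and 2 tests were applied to each gene. edgeR's quasi-likelihood test, which uses the spread between libraries, covered the 317 5′ UTRs with at least 10 tags, of which 12 were kinase or phosphatase genes. With Benjamini-Hochberg adjustment it called 0 of the 12 higher and 0 lower at an adjusted P value below 0.05, where 0% of all tested 5′ UTRs were called in each direction. At an unadjusted P value below 0.05, Dusp1 and Dusp6 were higher (2 of 12, against 7.57% of the tested 5′ UTRs) and 0 were lower (0.315%). That count of 2 was 0 with the replicate number as a block, 0 without any 1 of resting replicates 2 to 5 or depolarized replicate 3, and 4 without resting replicate 1. DESeq2 called 0 of the 12, also at an unadjusted P value below 0.05. The edgeR log2 fold change was above 0 for 9 of the 12 (75.0%), beside 66.6% of the tested 5′ UTRs, with a median of 1.69 beside 0.52. The median of all tested 5′ UTRs moved to 0.38 when library totals replaced TMM factors, so a log2 fold change near these values is no difference from the other messages.

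The pooled test used the kind of test named in the study's methods, a binomial test on tags normalized for depth. Summing the tags per condition and scaling the sums were choices made here, and genes were called at an exact binomial P below 0.2, a rule that carries no spread between replicates. By it, 15 of the 118 genes with a tag had more tags after depolarization, or 12.7% beside 5.21% of all 3280 5′ UTRs with a tag. Fewer tags were found on 6 genes, or 5.08% beside 4.51%. Among 5′ UTRs with at least 4 tags the shares were 31.9% of 47 genes beside 18.3% of all for more tags, and 8.51% beside 10.6% for fewer. At P below 0.05, 8 genes had more tags (6.78% beside 2.56%) and 2 fewer (1.69% beside 1.25%), and the pooled log2 fold change was above 0 for 57.6% of the genes beside 52.7% of all. The 15 were Dyrk1a, Ppp2r5e, Dusp1, Dusp6, Ppp2ca, Brsk1, Map2k1, Ppm1l, Ppp1r37, Ppp2r2b, Mapk4, Ppp1cb, Prkar2a, Prkca and Ppp1r10, and the 6 were Stk24, Ptpn1, Map3k10, Camkk2, Map3k12 and Ppp2r5b.

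These lists depended on how the libraries were joined. After Benjamini-Hochberg adjustment of the exact binomial P values over all 5′ UTRs with a tag, 0 of the 118 passed at 0.05, and the lowest adjusted value was 0.434. When resting and depolarized tags were compared only within replicate numbers, in an exact test with the replicate number as a block, 8 of 114 genes had more tags (7.02% beside 4.36% of all 5′ UTRs in that test) and 11 fewer (9.65% beside 10.1%), with 7 and 5 in common with the pooled lists. The balance of the calls thus turned toward fewer tags, as it did over all 5′ UTRs. Without depolarized replicate 1 the pooled test called 9 of 95 genes with more tags (9.47% beside 5.23% of all) and 4 with fewer (4.21% beside 3.15%). Without depolarized replicate 3 it called 11 of 113 with more (9.73% beside 5.29%) and 2 with fewer (1.77% beside 3.02%). Within replicates 1 to 3 it called 17 of 108 genes with more tags (15.7% beside 5.16% of all) and 4 with fewer (3.7% beside 5.06%). Within replicates 4 to 6 it called 2 of 45 with more (4.44% beside 3.73%) and 0 with fewer, where 1.44% of all were called. Brsk1, Dyrk1a, Ppm1l and Ppp2ca passed whichever single library was left out, and Stk24, whose tags all lay in resting replicate 2, passed in the 10 fits that kept that library. All 122 genes had at least 1 library without a tag in each condition. With a median of 2 tags per gene over 11 libraries this is likely at any difference, so it says nothing about the conditions. The share of all 5′ UTRs with such empty libraries was not counted.

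**Figure D2:**
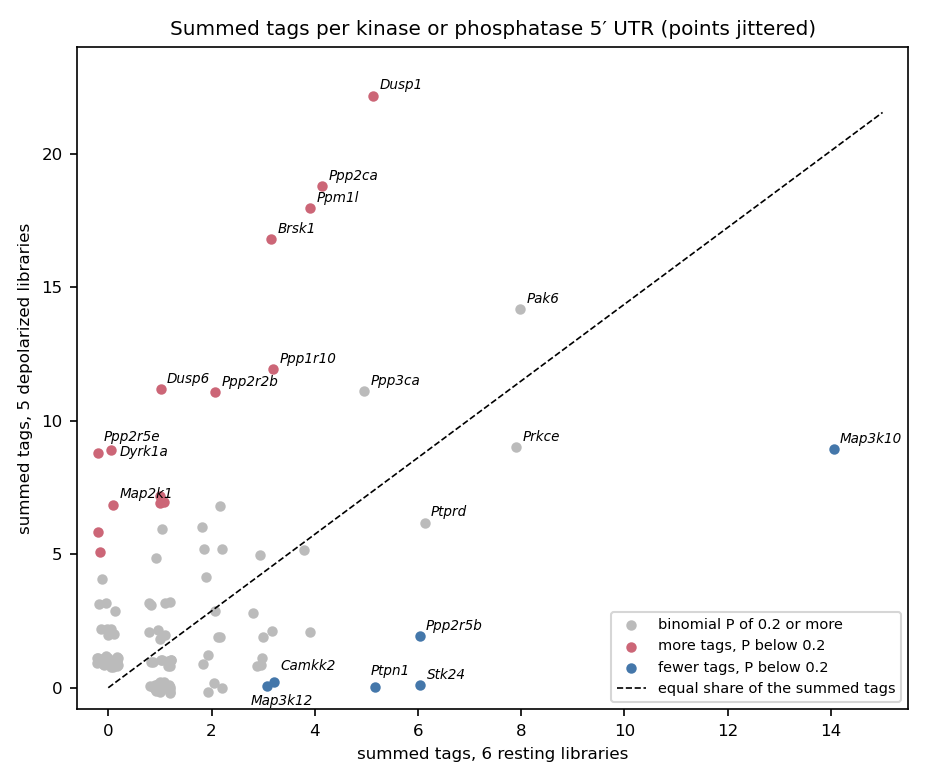
Summed tags on each kinase or phosphatase 5′ UTR in the 6 resting libraries (x axis) and the 5 depolarized libraries (y axis), with small random shifts so that points do not hide each other. Red marks the 15 genes with more tags and blue the 6 with fewer at an exact binomial P below 0.2, and the dashed line is an equal share of the summed tags. Dusp1, Ppp2ca, Ppm1l and Brsk1 lie farthest above the line and Map3k10 farthest below it.

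Among genes with a MAP kinase cascade prefix, 18 of 19 had a tag, with 30 tags at rest and 46 after depolarization. They include Mapk8ip2 and Mapkap1, which were not counted among the kinases above. By the pooled test 2 genes had more and 2 fewer tags, where 5.21% and 4.51% of all 5′ UTRs with a tag were called. Counts this small cannot be set apart from the background. Map3k10, a mixed-lineage kinase at the top of the JNK branch, carried 23 of these 76 tags on its 570-base 5′ UTR (chr7:27674025-27674594, minus strand). Resting replicates 1 to 6 gave it 13, 0, 0, 0, 0 and 1 tags, and depolarized replicates 1, 2, 3, 4 and 6 gave 8, 0, 1, 0 and 0. Nearly all of its tags thus lay in the replicate 1 pair, with the most at rest. The ratio of its share after depolarization to that at rest was 0.45 (95% exact interval 0.17 to 1.11, exact binomial P = 0.108), and edgeR gave a log2 fold change of -0.97 (SE 1.03, adjusted P = 0.862 by Benjamini-Hochberg). Without resting replicate 1 the pooled log2 fold change turned to 1.60 (exact binomial P = 0.289), and without depolarized replicate 3 the P value was 0.210.

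Map2k1, the kinase that activates ERK, had no tag at rest and 5 and 2 tags in depolarized replicates 1 and 3. The 95% exact lower limit of its ratio was 1.0 (exact binomial P = 0.0312), and the P value was 0.25 without depolarized replicate 1. Its close relative Map2k2 had 2 tags at rest and 5 after depolarization (exact binomial P = 0.688). Mapk4, an atypical MAP kinase, had 1 resting tag in replicate 4 and 4, 2 and 1 tags in depolarized replicates 1 to 3, a ratio of 4.87 (95% exact interval 0.63 to 219.6, exact binomial P = 0.125). Its P value was 0.258 in the replicate block and reached 0.453 when resting replicate 1, depolarized replicate 1 or depolarized replicate 2 was left out.

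Map3k12, a kinase of axonal stress signalling, had 2 tags in resting replicate 1, 1 in resting replicate 4 and none after depolarization. Its ratio was 0 with a 95% exact upper limit of 1.68 (exact binomial P = 0.125), and the P value rose to between 0.25 and 0.5 when resting replicate 1 or 4 or depolarized replicate 1, 2 or 3 was left out. Map3k9 had 1 resting and 6 depolarized tags, all 6 in replicate 1, and missed the pooled threshold (exact binomial P = 0.219) but passed in the replicate block. Map4k4, an STE20-type kinase upstream of JNK, had 2 tags, both in depolarized replicate 3, on a 317-base 5′ UTR (chr1:39900913-39901229, plus strand) with 2 copies of CGCGGC. No change can be read from 2 tags (exact binomial P = 0.5), and Map4k2 had none.

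The dual-specificity phosphatases, which dephosphorylate MAP kinases, had 6 listed genes with 11 resting and 36 depolarized tags. Dusp1, an activity-induced nuclear phosphatase of p38, JNK and ERK, had more tags than any other kinase or phosphatase gene, 27 on a 196-base 5′ UTR (chr17:26508324-26508519, minus strand), or 137.8 tags per kilobase. It had 5 tags in resting replicate 1 and none in resting replicates 2 to 6, and 4, 3, 15, 0 and 0 in depolarized replicates 1, 2, 3, 4 and 6. Depolarized replicate 3 was the highest library and supplied most of the depolarized tags. The ratio of shares was 3.06 (95% exact interval 1.13 to 10.4, exact binomial P = 0.0146), and edgeR gave a log2 fold change of 2.12 (SE 1.03, adjusted P = 0.561 by Benjamini-Hochberg). Without depolarized replicate 3 the exact binomial P value was 0.774, and in the replicate block it was 0.809.

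Dusp6, the cytoplasmic phosphatase that acts on ERK, had 1 tag in resting replicate 1 and 7, 0, 2, 0 and 2 tags in depolarized replicates 1, 2, 3, 4 and 6, on a 461-base 5′ UTR (chr10:99263231-99263691, plus strand). It was 1 of 3 kinase or phosphatase genes with a tag in depolarized replicate 6, the shallowest library. The ratio was 7.66 (95% exact interval 1.11 to 329.6, exact binomial P = 0.0215), with P = 0.0208 in the replicate block and P = 0.219 without depolarized replicate 1. By edgeR it had a log2 fold change of 2.64 (SE 1.28, adjusted P = 0.561 by Benjamini-Hochberg). Among the other Dusp genes, Dusp8 had 1 resting and 3 depolarized tags, and Dusp19 had 2 tags and Dusp4 and Dusp26 1 each, all at rest. None of these 4 passed the pooled test, and no direction can be read from so few tags.

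**Figure D3:**
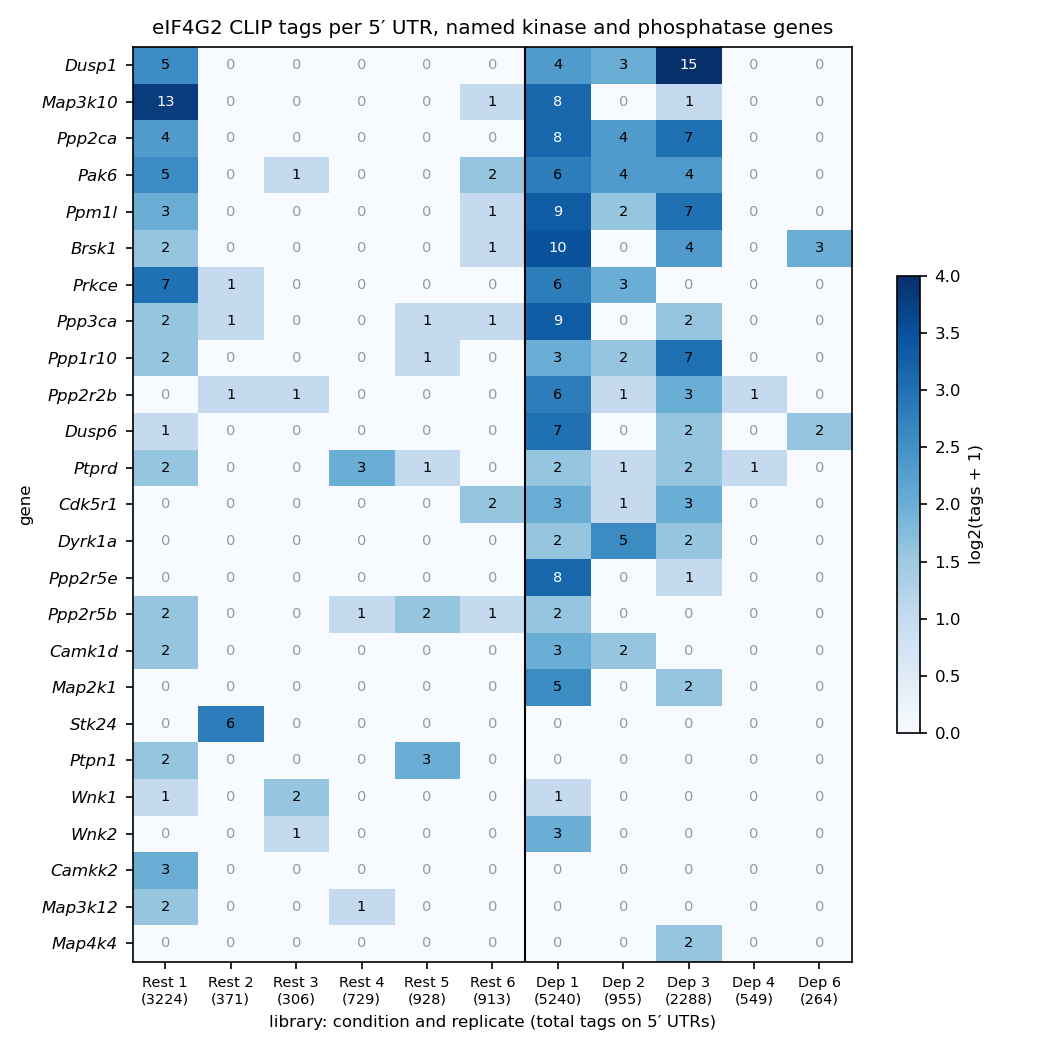
Tags on the 5′ UTRs of the named kinase and phosphatase genes (rows) in each library (columns, total tags in brackets), with the number of tags written in each cell and colour on a log2(tags + 1) scale. Tags concentrate in replicate 1 of both conditions and in depolarized replicates 2 and 3, and depolarized replicates 4 and 6 are nearly empty.

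Genes with a serine/threonine phosphatase prefix were the largest group, with 40 genes, 56 resting and 141 depolarized tags. Ppp1r21 and Ppp1r35 are among them, although counted above as neither a catalytic nor a regulatory subunit. By the pooled test 7 of the group's 39 genes with a tag had more tags and 1 had fewer, where 5.21% and 4.51% of all 5′ UTRs with a tag were called. Of the 18 with at least 4 tags these are 38.9% and 5.56%, beside 18.3% and 10.6% of all such 5′ UTRs. This excess was not kept with the replicate number as a block, where Ppp2r5e was the 1 of the 7 still called with more tags and Ppp2r5b lost its call. In the block Ppp1r14c and Ppp2r5a were newly called with fewer tags. Of all 5′ UTRs in that test 4.36% were called with more and 10.1% with fewer. The group took 0.785 ± 0.316% of the tags of resting libraries (SD, n = 6) and 1.04 ± 0.844% of those of depolarized ones (SD, n = 5), which is within the spread between libraries. Protein phosphatase 2A, built from a catalytic, a scaffold and an exchangeable regulatory subunit, was represented by 10 genes with 67 tags.

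Its catalytic subunit gene Ppp2ca had 23 tags on a 368-base 5′ UTR (chr11:52098681-52099048, plus strand), which overlaps a long noncoding RNA and a microRNA gene annotated on the opposite strand. There were 4 tags in resting replicate 1, none in resting replicates 2 to 6, and 8, 4, 7, 0 and 0 in depolarized replicates 1, 2, 3, 4 and 6. A tag was thus found in 3 of 5 depolarized libraries and in 1 of 6 resting ones. The ratio was 3.31 (95% exact interval 1.10 to 13.4, exact binomial P = 0.0266), with P = 0.337 in the replicate block. By edgeR it had a log2 fold change of 2.01 (SE 1.08, adjusted P = 0.596 by Benjamini-Hochberg). The second catalytic gene, Ppp2cb, had 2 tags, both at rest, and the scaffold gene Ppp2r1a had 1 resting and 2 depolarized tags.

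Of the regulatory subunits of protein phosphatase 2A, Ppp2r5e had no resting tag and 8 and 1 tags in depolarized replicates 1 and 3, a ratio with a 95% exact lower limit of 1.37 (exact binomial P = 0.00781). It passed in the replicate block (P = 0.0291) but not without depolarized replicate 1 (exact binomial P = 1.0). Ppp2r2b, the neuronal B-type subunit, had 1 tag each in resting replicates 2 and 3 and 6, 1, 3, 1 and 0 tags in depolarized replicates 1, 2, 3, 4 and 6, so that 4 of 5 depolarized libraries held one. Its ratio was 3.83 (95% exact interval 0.84 to 35.5, exact binomial P = 0.0654), with P = 0.343 in the replicate block, P = 0.549 without resting replicate 1 and P = 0.289 without depolarized replicate 1. Ppp2r5b went the other way, with 2, 0, 0, 1, 2 and 1 tags in the resting libraries and 2 tags in depolarized replicate 1 alone. For Ppp2r5b the ratio was 0.23 (95% exact interval 0.02 to 1.30, exact binomial P = 0.18), and the call was lost in the replicate block (P = 0.409), without resting replicate 5 (P = 0.453) and without depolarized replicate 3 (P = 0.289).

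Genes with the prefix Ppp1, of protein phosphatase 1, numbered 17, with 15 resting and 45 depolarized tags. They include Ppp1r21 and Ppp1r35, which were counted above as neither a catalytic nor a regulatory subunit. The catalytic gene listed was Ppp1cb, with no tag at rest and 2, 1 and 2 tags in depolarized replicates 1 to 3. The 95% exact lower limit of the Ppp1cb ratio was 0.64 (exact binomial P = 0.125, and P = 0.314 in the replicate block), and the P value reached 0.25 without resting replicate 1 or depolarized replicate 3. Ppp1r10, which holds protein phosphatase 1 in the nucleus, had 2 tags in resting replicate 1, 1 in resting replicate 5 and 3, 2 and 7 in depolarized replicates 1 to 3. Its ratio was 2.78 (95% exact interval 0.75 to 15.4, exact binomial P = 0.18), with P = 0.523 in the replicate block and P = 0.727 without depolarized replicate 3. By edgeR, Ppp1r10 had a log2 fold change of 1.77 (SE 1.13, adjusted P = 0.673 by Benjamini-Hochberg). Ppp1r37 had no resting tag and 2 and 4 tags in depolarized replicates 1 and 3, with a 95% exact lower limit of 0.82 for the ratio (exact binomial P = 0.0625, P = 0.325 in the replicate block and P = 0.5 without depolarized replicate 3).

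Further regulators of protein phosphatase 1 did not pass. Ppp1r9b, or spinophilin, which places the enzyme in dendritic spines, had 2 resting and 6 depolarized tags, all 6 in replicate 1 (exact binomial P = 0.453). Ppp1r15b, a regulator that directs protein phosphatase 1 to the initiation factor eIF2, had 4 depolarized tags and none at rest (exact binomial P = 0.25), and its relative Ppp1r15a had 1 tag. Ppp1r1b, which encodes DARPP-32, had 1 tag.

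Calcineurin, the calcium-dependent phosphatase, had its catalytic gene Ppp3ca and its regulatory gene Ppp3r1 listed. Ppp3ca had 2, 1, 0, 0, 1 and 1 tags in the resting libraries and 9, 0, 2, 0 and 0 in the depolarized ones, on a 720-base 5′ UTR (chr3:136670124-136670843, plus strand) that held 7 copies of CGCGGC, and the resting tags were spread over more libraries than the depolarized ones. The ratio was 1.53 (95% exact interval 0.49 to 5.62, exact binomial P = 0.607), and edgeR gave a log2 fold change of 0.29 (SE 1.03, adjusted P = 0.955 by Benjamini-Hochberg). Ppp3r1 had 3 tags, all in depolarized replicate 1.

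Ppm1l, a membrane-bound phosphatase of the PP2C type, had 22 of the 38 tags on the 7 Ppm1 genes, on a 706-base 5′ UTR (chr3:69316861-69317566, plus strand). It had 3 tags in resting replicate 1, 1 in resting replicate 6 and 9, 2, 7, 0 and 0 in depolarized replicates 1, 2, 3, 4 and 6. The ratio was 3.13 (95% exact interval 1.03 to 12.7, exact binomial P = 0.0414), with P = 0.223 in the replicate block, and edgeR gave a log2 fold change of 1.74 (SE 1.07, adjusted P = 0.657 by Benjamini-Hochberg). The other Ppm1 genes had at most 6 tags each and did not pass.

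Among tyrosine phosphatases, Ptpn1, which acts on the insulin receptor, had 2 tags in resting replicate 1, 3 in resting replicate 5 and none after depolarization. Its ratio was 0 with a 95% exact upper limit of 0.76 (exact binomial P = 0.0312), with P = 0.145 in the replicate block and P = 0.25 without resting replicate 5. Ptpn5, the striatal-enriched phosphatase STEP, had 4 resting and 2 depolarized tags, all 6 in replicate 1 (exact binomial P = 0.453). Ptprd, a receptor-type phosphatase that organizes synapses, had tags in more libraries than any other of these genes, 7 of 11, with 2, 0, 0, 3, 1 and 0 at rest and 2, 1, 2, 1 and 0 after depolarization. Its ratio was 0.70 (95% exact interval 0.19 to 2.60, exact binomial P = 0.774), and edgeR gave it a log2 fold change of -0.07 (SE 1.05, adjusted P = 0.995 by Benjamini-Hochberg). The remaining receptor-type genes had at most 6 tags each.

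**Figure D4:**
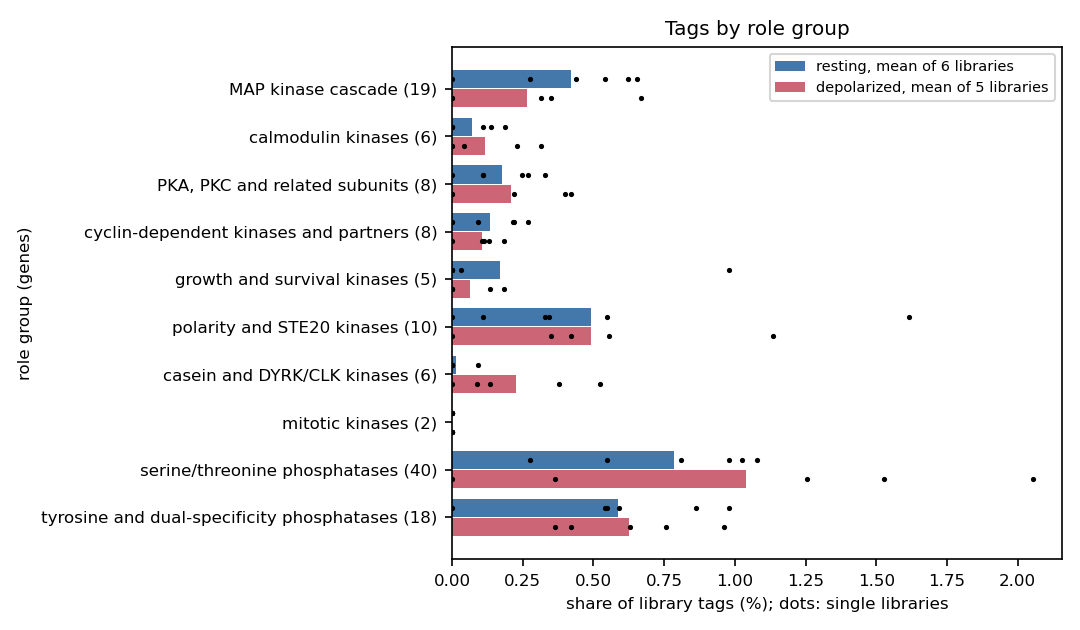
Share of library tags (x axis, percent) on each group of kinase or phosphatase genes, with the number of genes in brackets. Bars are means of 6 resting (blue) and 5 depolarized (red) libraries and dots are single libraries. In every group with tags the dots of the conditions overlap, and serine/threonine phosphatases hold the largest share.

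Kinases of cell polarity and the cytoskeleton gave 10 genes with 24 resting and 44 depolarized tags. Brsk1, a kinase of axon formation and presynaptic vesicle release, had 20 tags on a 152-base 5′ UTR (chr7:4690928-4691079, plus strand), or 131.6 tags per kilobase. It had 2 tags in resting replicate 1 and 1 in resting replicate 6, and 10, 0, 4, 0 and 3 in depolarized replicates 1, 2, 3, 4 and 6, with tags on both sides of the split between replicates 1 to 3 and 4 to 6. The ratio was 3.94 (95% exact interval 1.14 to 21.01, exact binomial P = 0.0309), and P was 0.0106 in the replicate block and at most 0.0768 with any library left out. edgeR gave Brsk1 a log2 fold change of 2.14 (SE 1.13, adjusted P = 0.596 by Benjamini-Hochberg).

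Pak6, a kinase of the PAK family, had 5, 0, 1, 0, 0 and 2 tags in the resting libraries and 6, 4, 4, 0 and 0 in the depolarized ones, on a 916-base 5′ UTR in 4 exons. Its ratio was 1.22 (95% exact interval 0.48 to 3.35, exact binomial P = 0.832), and edgeR gave a log2 fold change of 0.68 (SE 1.03, adjusted P = 0.908 by Benjamini-Hochberg). Stk24, an STE20-type kinase, had 6 tags, all in resting replicate 2, where it was the kinase or phosphatase gene with the most tags. Its ratio was 0 with a 95% exact upper limit of 0.59 (exact binomial P = 0.0156, and P = 0.00048 in the replicate block), but 1 library gave every tag, and without it no tag remains.

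Among the kinases of second messengers, the protein kinase A and C genes had 8 members with 12 resting and 30 depolarized tags. Prkce, the calcium-independent protein kinase C epsilon, had 7 tags in replicate 1 and 1 in replicate 2 at rest, beside 6 and 3 after depolarization, and none in the other libraries, on an 808-base 5′ UTR (chr17:86167785-86168592, plus strand). Its ratio was 0.78 (95% exact interval 0.27 to 2.33, exact binomial P = 0.815), and edgeR gave it a log2 fold change of -0.01 (SE 0.73, adjusted P = 0.995 by Benjamini-Hochberg). Without resting replicate 1 the edgeR log2 fold change of Prkce was 1.52. Prkca had 1 tag in resting replicate 6 and 6 and 1 in depolarized replicates 1 and 2, and Prkar2a, a regulatory subunit of protein kinase A, had 1 in resting replicate 5 and 4 and 3 in depolarized replicates 1 and 3. Both had a ratio of 4.87 (95% exact interval 0.63 to 219.6, exact binomial P = 0.125), with P = 0.132 and P = 0.178 in the replicate block. Each lost the call without resting replicate 1 and without depolarized replicate 1, Prkca also without depolarized replicate 2 and Prkar2a without depolarized replicate 3, with P values of up to 1.0 for Prkca and 0.453 for Prkar2a. The 5′ UTR of Prkca overlaps the gene Apoh on the opposite strand.

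The 6 genes with a Camk prefix had 8 resting and 16 depolarized tags. Of these, 1 and 5 were on Camkv, which was not counted among the kinases above. Camk2a, Camk2b and Camk2d, which encode subunits of the kinase that drives synaptic potentiation, had 3, 1 and 4 tags and did not pass (exact binomial P = 1.0, 1.0 and 0.625). Camk1d had 2 tags in resting replicate 1 and 3 and 2 in depolarized replicates 1 and 2 (exact binomial P = 0.688). Camkk2, the kinase that switches on CaMKI and AMPK, had 3 tags in resting replicate 1 and none elsewhere. Its ratio was 0 with a 95% exact upper limit of 1.68 (exact binomial P = 0.125), and without depolarized replicate 1, 2 or 3 the P value was 0.5, 0.25 and 0.25, respectively. With TMM library sizes in place of totals, Camkk2 and Map3k12 both lost the call (exact binomial P = 0.25 each).

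Cyclin-dependent kinases and their partners, 8 genes with 19 tags, gave no call. Cdk5r1, which encodes p35, the activator of Cdk5, had the most tags, with 2 in resting replicate 6 and 3, 1 and 3 in depolarized replicates 1 to 3. Its ratio was 2.44 (95% exact interval 0.46 to 24.04, exact binomial P = 0.289), and the P value was 0.0312 without resting replicate 6. In the casein, DYRK and CLK group, Dyrk1a, a dosage-sensitive kinase of the Down syndrome region, had no resting tag and 2, 5 and 2 tags in depolarized replicates 1 to 3. The 95% exact lower limit of its ratio was 1.37 (exact binomial P = 0.00781), with P = 0.116 in the replicate block and at most 0.125 with any library left out. The other 5 genes of this group had 9 tags between them and did not pass.

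The 5 growth and survival kinase genes had 12 tags in all. Wnk1 and Wnk2, kinases that control chloride transport, had 4 tags each: Wnk1 1 in resting replicate 1, 2 in resting replicate 3 and 1 in depolarized replicate 1, and Wnk2 1 in resting replicate 3 and 3 in depolarized replicate 1. Neither passed the pooled test (exact binomial P = 0.375 and 0.625), and Wnk1 passed in the replicate block with fewer tags (P = 0.0388). Akt1 had 2 tags and Gsk3a and Rps6ka3 1 each, all after depolarization.

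Kinases and signalling genes outside the symbol rule were read from a second list of 65, of which 35 were listed. Their median was 5 tags. By the pooled test 6 of the 35 had more tags and 1 fewer, where 5.21% and 4.51% of all 5′ UTRs with a tag were called. Of the 19 with at least 4 tags these are 31.6% and 5.26%, beside 18.3% and 10.6% of all such 5′ UTRs. Of the 10 with enough tags for edgeR 0 were called (1 at an unadjusted P value below 0.05, higher, where 7.57% of the tested 5′ UTRs were). Taok2, an STE20-type kinase like Stk24 and Map4k4, had 4 resting and 20 depolarized tags (exact binomial P = 0.0169, adjusted P = 0.739), with a tag in every depolarized library. Ulk2, an autophagy kinase, had 4 tags in resting replicate 1, 1 in resting replicate 5 and none in depolarized libraries (exact binomial P = 0.0312, adjusted P = 0.967).

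All 122 genes matched a 5′ UTR in GENCODE M21. Their median length was 350.5 bases, beside 306.5 bases for all 3316 matched 5′ UTRs, and their median GC content 71.8% beside 65.9%. Of listed 5′ UTRs in the same deciles of length alone, 39.3% held CGCGGC. An upstream ATG was found in 72.1% beside 66.6%, and an upstream ORF with its stop codon inside the 5′ UTR in 68.0% beside 60.9%. Phosphatase regulators had the longest 5′ UTRs, with a median of 529 bases, and 80.8% of them held such an upstream ORF.

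Tags per 5′ UTR went with its length in these genes (Spearman's rho 0.32 across 122 genes, which share the same 11 libraries) as over all matched 5′ UTRs (0.24). Per kilobase, kinase and phosphatase 5′ UTRs with CGCGGC had 11.8 tags and those without 10.4, beside 13.2 and 11.4 over all matched 5′ UTRs. The order was the opposite among the 12 genes with at least 10 tags (28.2 with and 49.9 without) and among all listed 5′ UTRs that had 10 tags or more (44.2 and 53.6). Kinases alone had 10.7 and 10.9 tags per kilobase. The hexamer was in 10 of the 15 5′ UTRs with more tags after depolarization (66.7%, beside 53.0% of all matched 5′ UTRs called with more) and in 2 of the 6 with fewer (33.3% beside 41.5%). The 5′ UTRs of 16 of the 122 genes overlap another annotated gene. Among those described above they are Dusp19, which overlaps the protein-coding gene Nup35 on the same strand, and Ppp2ca, Prkca, Ppp1r15b and Ptpn5, which overlap genes on the opposite strand, and tags of overlapping genes cannot be assigned with certainty.

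**Figure D5:**
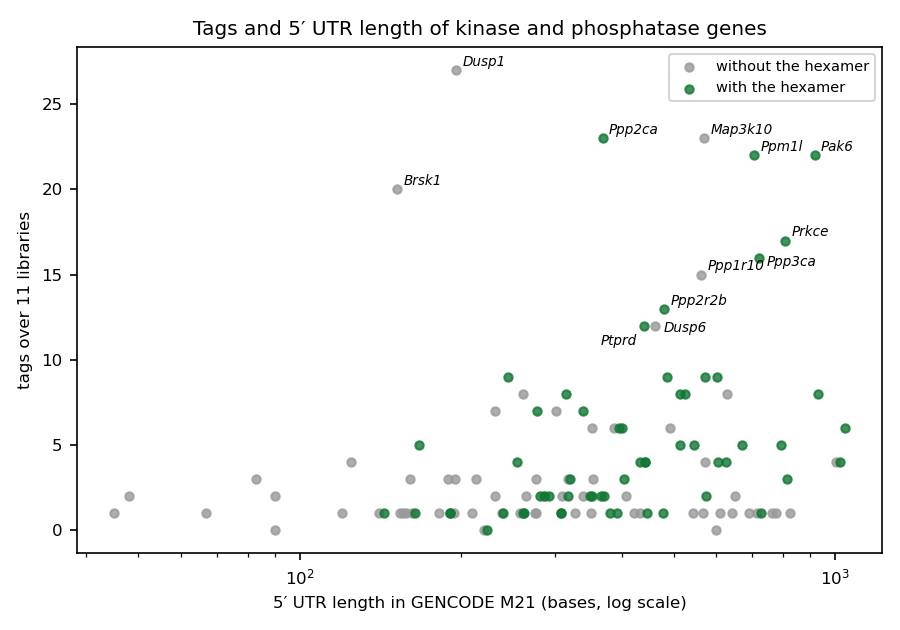
Tags over the 11 libraries (y axis) against annotated 5′ UTR length (x axis, bases, log scale) for the 122 kinase and phosphatase genes, with 5′ UTRs that hold the hexamer described in the text in green and the others in grey. Dusp1 (196 bases) and Brsk1 (152 bases) combine a short 5′ UTR without the hexamer with many tags.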

How the data were processed

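eIF4G2 CLIP was measured in 6 resting and 5 depolarized libraries of mouse cortical neurons. The authors deposited raw counts of tags per 5′ UTR, 1 table per library, not normalized and not pooled. Before that they filtered, demultiplexed and trimmed single-end reads with CLIP Tool Kit, collapsed exact duplicates, aligned to mm10 with Rsubread and counted on the longest transcript of each UCSC known gene with summarizeOverlaps. The submitters' processing notes also name cutadapt. The handling of reads with several matches, the rule behind the list of 5′ UTRs and any use of molecular identifiers are not given in the sources used here. Near-identical copies and overlapping genes are therefore uncertain, and intervals cover counting error only. The entry with no gene name (1 row, 0% of tags) stayed out. Of the 12 tables, that of depolarized replicate 5 equals that of resting replicate 5 and was not used. The methods call the replicates biological, each made from 3 dishes, and do not say whether each was a separate preparation of neurons. The edgeR and DESeq2 P values therefore measure the spread between labelled libraries. The exact binomial P values and those of the replicate block carry counting error only.

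All tests ran over the whole table, and the kinase and phosphatase rows were then read. edgeR 4.0.16 (R 4.3.3; glmQLFit and glmQLFTest) used TMM factors, totals over all 5′ UTRs, condition as the only term, 5′ UTRs with at least 10 tags and Benjamini-Hochberg adjustment. The pooled test, whose summing and scaling were chosen here since the methods name only a binomial test on normalized tags, scaled summed tags to the mean of the 2 totals, rounded them and applied a two-sided exact binomial test against 0.5, with a pseudocount of 0.1 for log2 fold changes. Ratios of shares carry 95% exact (Clopper-Pearson) intervals and library shares Wilson intervals. DESeq2 1.42.0 with poscounts size factors, other scalings, filters, thresholds and left-out libraries were alternatives. Both scripts were run on simulated data. For edgeR the recovery of changed genes was checked at a dispersion below the 1.004 of these libraries, and the pooled test without spread between libraries. Neither check shows what the tests detect in these data. Sequences came from GENCODE M21, with the longest protein-coding transcript per gene. Python 3.11.15, pandas 2.3.3, scipy 1.17.1 and matplotlib 3.10.9 were used.

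Replicate numbers pair the libraries: per the labels, resting and depolarized samples of a replicate were pooled after reverse transcription, and the deviations of same-numbered libraries correlated at 0.192 to 0.310 over the 5 pairs. Libraries of other numbers within replicates 1 to 3 or 4 to 6 correlated at 0.071 to 0.307 and those across these sets at -0.312 to -0.157, and 3 of the 5 resting libraries with a partner correlated best with it, so the deviations follow the sets as well as the numbers. The block test leaves out resting replicate 5, which has no partner. Named genes were Map4k4, genes with at least 10 tags, the gene or genes with the most tags in each role group (up to 2), and the 8 with the smallest pooled P value below 0.2 in each direction, and genes named beside them were chosen after their values were seen. The gene lists were chosen with earlier results of these data known.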

Additional observations from a re-analysis of the deposited data

Results flagged for a closer look

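Of 28 groups of libraries examined (total tags, the share on kinases and phosphatases, and the CPM of genes with at least 10 tags), 9 held a library set apart from the rest by Dixon's test at its 95% critical value. Chance gives about 1 in 20 groups, or 1.4 here, only for normally distributed values, which these sparse counts are not. The 9 flags therefore cannot be set against it. In total tags it was resting replicate 1, with 3224 where the next had 928. On Dusp1, Dusp6 and Ppp2ca resting replicate 1 was the only resting library with a tag, at 1551, 310 and 1241 CPM. With every other value at 0 such a flag is fixed in advance. A count of 0 allows 3233 to 9804 CPM in the other resting libraries, above each of these values. On Map3k10 resting replicate 1 had 4032 CPM and the next resting library 1095. Depolarized replicate 1 had 1527 CPM on Map3k10, the next depolarized library 437. On Ptprd resting replicate 4 had 4115 CPM, from 3 tags, and the next resting library 1078. Depolarized replicate 6, the shallowest library, had 11364 CPM on Brsk1, from 3 tags, where the next depolarized library had 1908, and 7576 CPM on Dusp6, from 2 tags, where the next had 1336. For both the higher value is at or under what a count of 0 allows in that library.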

How the results depend on the processing

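With edgeR and DESeq2, 0 kinase or phosphatase genes were called higher or lower under every alternative run, and with replicates 4 to 6 alone none of them had enough tags for edgeR. The pooled test gave 15 with more and 6 with fewer tags. It gave 8 and 11 with the replicate block, 2 and 0 with replicates 4 to 6 alone, 8 and 2 with a threshold of 0.05, none in either direction (0 and 0) once that threshold was put on adjusted P values, and 7 and 1 with at least 10 tags. Leaving out 1 library gave 9 to 17 with more and 2 to 6 with fewer. Raw sums, TMM sizes, totals without the 10 top 5′ UTRs, all 12 libraries and replicates 1 to 3 alone kept both counts within 1.5 times, although with TMM sizes Camkk2 and Map3k12 lost their calls. The mean shares of tags moved by less than 1 SD. With 1 library left out, pooled log2 fold changes of genes whose direction turned ran from -3.04 to 1.60 for Map3k10, -0.77 to 1.60 for Prkce, -0.04 to 0.70 for Pak6, -0.63 to 0.84 for Ppp3ca, -0.92 to 0.30 for Ptprd and -3.19 to 4.70 for Wnk2, and those of edgeR from -2.08 to 1.25 for Map3k10, -0.66 to 1.52 for Prkce and -0.42 to 0.10 for Ptprd. The pooled value of Pak6 was -0.06 with the replicate block (as the log2 ratio of observed to expected depolarized tags), that of Ptprd 0.20 with replicates 1 to 3 alone, and with replicates 4 to 6 alone Pak6, Cdk5r1 and Ppp3ca were at -3.82 and Ppm1l and Ppp1r10 at -2.92. edgeR with the replicate block gave Ptprd 0.16, and DESeq2 gave Prkce 0.02. None of the turned values passed its test. The block changed no edgeR call at an adjusted P value below 0.05. The causes were not tested. Most of these genes have too few tags for a difference to be detectable at this depth.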
